A study of Mus musculus with 15 samples.

Results

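The fibroblast growth factor (FGF) genes, their receptors and the FGF21 co-receptor gene Klb were followed in perigonadal fat, the depot beside the gonads, of lean, obese and weight loss mice. They are 10 of the 35794 genes in the deposited table, taken by Entrez ID: the secreted factors Fgf1, Fgf2, Fgf7, Fgf9, Fgf10 and Fgf21, the intracellular factor Fgf13, the receptors Fgfr1 and Fgfr2, and Klb. The 10 genes were chosen from a family list drawn up with results of these same libraries already known, Fgf13 in obese fat among them, so their values below are a description. All animals were C57BL/6 mice, 14 weeks old when the fat was taken. The lean group was kept on chow. A 60% high-fat diet, begun when the animals were 8 weeks old, was given to the obese group. The weight loss group had 5 weeks of this diet followed by 1 week of chow. The labels name no transgene and no sex, and the design text calls the samples independent without saying more on how animals map to libraries. The p-values therefore measure only the spread between these libraries, which may be technical.

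FGFs are secreted signals that bind receptor tyrosine kinases of the FGFR family together with heparan sulfate chains on the cell surface, and the receptors pass the signal mainly through the adaptor FRS2 to the RAS and ERK kinases. Most FGFs act near the cell that makes them, while FGF21 is a hormone that needs the membrane protein beta-klotho, the product of Klb, to bind FGFR1 on fat cells. FGF1 in visceral fat is known as a factor of depot remodelling under PPAR-gamma control, and FGF10, which signals through the epithelial-type splice form of FGFR2, is known for its part in forming fat cell precursors. FGF13 stands apart, since it has no secretion signal, does not activate FGF receptors and binds voltage-gated sodium channels and microtubules inside the cell.

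Totals of the 14 libraries used, 5 lean, 5 obese and 4 weight loss, ran from 13924770 to 33807887 counts, and 15208 genes passed a filter on low counts. Of the 10 genes 9 passed it and Fgf21 did not. Levels are CPM, counts relative to the TMM-scaled library total, and are given in the order of the replicate numbers. The 10 adipocyte markers summed to between 23435 and 40077 CPM in every library, none of them at 0. Markers of the epididymis, which adjoins this depot in male mice, summed to 8295, 6569 and 3836 CPM in obese replicates 2, 5 and 4 and to 3588 CPM in replicate 1 of the lean group. In the other 10 libraries they reached 924 CPM at most. Another library stood apart on other grounds: weight loss replicate 4 lay at or near the lean level for several genes that were high in the other weight loss libraries. Calls of family and pathway genes that rest on these libraries are given with and without them.

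Obese against lean fat showed the most changes in the family. Fgf13 rose 11.9-fold, and Fgf10 and Fgfr2 fell 1.83-fold and 1.76-fold. These 3 of the 9 tested genes passed an adjusted p of 0.05 in edgeR's quasi-likelihood test, where 9.71% of all genes did (5.86% higher and 3.85% lower). In the same 3 genes the lean and obese libraries did not overlap, which held for 10.3% of all genes. In weight loss against obese fat only Fgf10 passed, and it rose; none of the 9 fell. Of all genes 1.62% passed there, 0.736% higher and 0.881% lower. The groups did not overlap for Fgf9, Fgf10 and Fgf13, against 6.65% of all genes. In weight loss against lean fat none of the 9 passed, where 0.0329% of all genes did, and none had separate groups, against 2.29% of all genes. Fgf13 and Fgfr2 had unadjusted p values of 4.03e-05 and 0.0416 in that comparison. DESeq2's Wald test called 1 gene of the 9 there, but over all genes it called 243, where edgeR called 5. Each of the 3 comparisons shares its libraries with the others. Over the 9 genes the median log2 difference was -0.22 between obese and lean fat, where it was -0.02 over all genes. It was 0.25 from obesity to weight loss (0.02 over all genes) and -0.02 between weight loss and lean fat (0.00 over all genes).

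**Figure D1:**
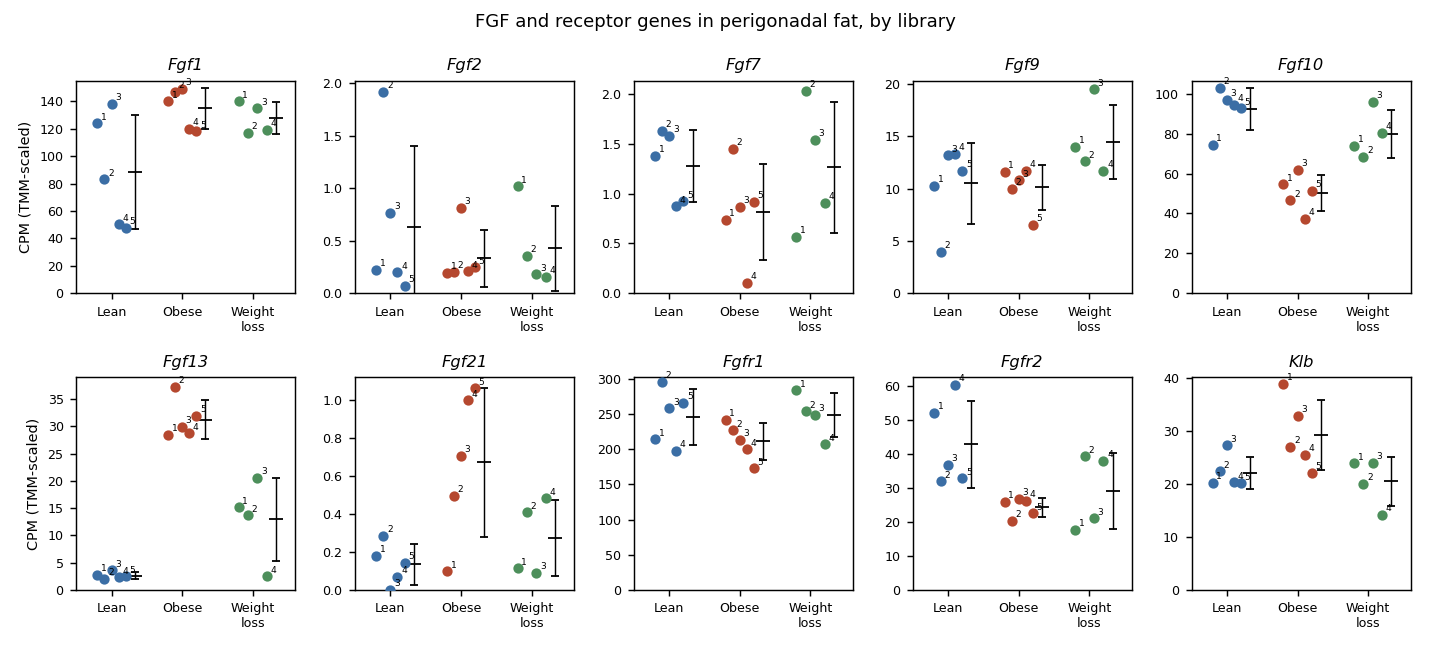
Level of each of the 10 genes in each library, in CPM after TMM scaling on a linear axis from 0, with replicate numbers beside the points and bars for the mean ± SD of the group, drawn no lower than 0. Fgf13 in obese fat lies at 28.4 CPM or more, above every other library, and Fgf10 in obese fat at 61.8 CPM or less, below every other library.

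Scaled by exon length, which allows genes to be compared, 3 members led in lean fat: Fgfr1 at 25.5 ± 4.13 CPM per kilobase (SD, n = 5), Fgf10 at 21.8 ± 2.50 and Fgf1 at 16.2 ± 7.59. These 3 overlapped with their neighbours in the order and lay apart from the next gene, Klb at 4.95, which overlapped with Fgfr2 at 4.27. Fgf9 at 2.3 and Fgf13 at 0.649 CPM per kilobase followed, and Fgf7, Fgf21 and Fgf2 were the lowest at 0.393, 0.142 and 0.0956. In obese fat the order was Fgf1 (24.7 CPM per kilobase), Fgfr1 (21.8), Fgf10 (11.9), Fgf13 (7.77), Klb (6.58), Fgfr2 (2.43), Fgf9 (2.23), Fgf21 (0.707), Fgf7 (0.251) and Fgf2 (0.0502). Fgf13 stood there between Fgf10 and Klb and overlapped with both, while Fgf10 lay apart from Fgfr1 above it. After weight loss Fgfr1, Fgf1 and Fgf10 again formed the top 3, at 25.7, 23.4 and 18.8 CPM per kilobase, apart from Klb at 4.61. Klb, Fgf13, Fgf9 and Fgfr2 overlapped with their neighbours between 4.61 and 2.89 CPM per kilobase, and Fgf7, Fgf21 and Fgf2 again came last.

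The promoter windows of the 3 called genes are shown because these are the family members whose RNA changed. Windows run from 250 bases before to 50 bases after an annotated start, from RefSeq on GRCm38.p6, and 8 of the 10 genes had one. Each is written 5′ to 3′ on the strand of the gene, with matches to searched motifs in capitals. Searched on both strands were the E-box spelled CACGTG, the TATA box spelled TATAAA, the CCAAT box by those 5 letters, the GC box spelled GGGCGG and the cAMP response element spelled TGACGTCA. No motif contains another. Of 32851 mouse windows of this length 7.15% held the E-box, 13.6% the TATA box, 37.4% the CCAAT box, 35.7% the GC box and 1.79% the cAMP response element. Fgf13 has 4 annotated starts, and counts per gene do not tell which of them gave the RNA in obese fat, so the 2 most upstream ones are printed.
Fgf10, chr13:118714449-118714748, plus strand: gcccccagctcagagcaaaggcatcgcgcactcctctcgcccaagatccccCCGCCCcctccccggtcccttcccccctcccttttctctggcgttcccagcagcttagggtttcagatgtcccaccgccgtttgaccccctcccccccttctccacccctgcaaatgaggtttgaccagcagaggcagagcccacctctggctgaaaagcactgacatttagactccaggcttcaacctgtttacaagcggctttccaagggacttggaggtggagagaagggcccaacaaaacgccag
Fgfr2, chr7:130266759-130267058, minus strand: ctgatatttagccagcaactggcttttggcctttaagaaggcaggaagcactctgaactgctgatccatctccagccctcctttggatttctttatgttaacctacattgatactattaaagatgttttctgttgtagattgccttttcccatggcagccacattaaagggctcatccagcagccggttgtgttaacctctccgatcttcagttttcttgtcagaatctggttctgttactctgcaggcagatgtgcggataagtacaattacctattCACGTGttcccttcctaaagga
Fgf13 start 1, chrX:59585523-59585822, minus strand: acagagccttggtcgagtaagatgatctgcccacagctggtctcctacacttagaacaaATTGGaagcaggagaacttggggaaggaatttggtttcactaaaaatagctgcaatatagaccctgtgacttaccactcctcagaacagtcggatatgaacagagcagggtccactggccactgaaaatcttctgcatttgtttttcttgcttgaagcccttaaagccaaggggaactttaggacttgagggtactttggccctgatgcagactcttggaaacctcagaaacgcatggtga
Fgf13 start 2, chrX:59567299-59567598, minus strand: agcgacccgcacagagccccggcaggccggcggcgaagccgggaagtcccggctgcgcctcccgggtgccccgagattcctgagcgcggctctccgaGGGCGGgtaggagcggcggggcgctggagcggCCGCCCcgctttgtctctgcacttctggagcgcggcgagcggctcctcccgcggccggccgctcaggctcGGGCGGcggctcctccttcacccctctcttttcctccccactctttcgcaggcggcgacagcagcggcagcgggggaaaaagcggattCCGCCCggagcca
The Fgf10 window was 60.7% G and C with 1 GC box, and the Fgfr2 window 43.7% with 1 E-box, beside a median of 52.7% over all windows. The 2 windows of Fgf13 differed, with 46.3% G and C, 3 CpG and 1 CCAAT at start 1 against 74.3%, 40 CpG and 4 GC boxes at start 2, where the median window held 7 CpG. Start 4 was much like start 2 in these measures, with 73% G and C, 37 CpG and 4 GC boxes, and start 3 was at 40.3% with 6 CpG and 1 TATA box, the only TATA box match in the windows of these 3 genes. No motif was found in all 3 called genes, while the GC box was in the Fgf10 window and in those of Fgf13 starts 2 and 4. A match is a run of letters and not a shown site.

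Among the secreted factors Fgf10, the ligand of fat cell precursors, was the one that fell in obesity and rose with weight loss. Fgf10 (Entrez ID 14165) lies on the plus strand of chromosome 13, 118714699 to 118792573 on GRCm38 in RefSeq, and shares 69 exon bases with the antisense gene Gm16263. It stood at 74.5, 103, 96.8, 94.5 and 92.7 CPM in lean fat, at 54.6, 46.5, 61.8, 37.4 and 51.4 CPM in obese fat and at 74.0, 68.4, 95.9 and 80.5 CPM after weight loss. All 5 obese libraries were below all lean and all weight loss libraries, and the weight loss libraries overlapped the lean ones. The log2 difference was -0.87 ± 0.14 (SE) in obese against lean fat (adjusted p = 0.00171) and 0.66 ± 0.15 after weight loss against obese fat (adjusted p = 0.0361). After weight loss Fgf10 differed from lean fat by -0.21 ± 0.15 (adjusted p = 0.612). Without the 4 libraries rich in epididymal markers, which leaves 2 obese libraries, the fall was -0.73 (adjusted p = 0.0716) and the rise 0.45 (adjusted p = 0.677). The rise also missed the threshold, at log2 0.65 (adjusted p = 0.0709), without weight loss replicate 4, with epididymal markers as a covariate (0.46, adjusted p = 0.683), and with any 1 of 7 other libraries left out (lean replicate 4, obese replicates 1, 2, 4 and 5, and weight loss replicates 1 and 3, with adjusted p of 0.0544 to 0.124).

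Markers of other cells also differed between lean and obese fat. Over all genes 5.86% passed as higher in obese fat and 3.85% as lower, the shares to set beside the counts that follow. Of 10 adipocyte precursor markers 3 rose (Ly6a, Pi16 and Cd34) and none fell, with summed levels of 829 to 1565 CPM in lean, 1243 to 1713 CPM in obese and 1149 to 2176 CPM in weight loss libraries. Of 10 macrophage markers 7 rose, and they summed to 390 to 839 CPM in lean, 820 to 1306 CPM in obese and 507 to 1192 CPM in weight loss fat. Summed adipocyte markers ran from 26421 to 40077 CPM over the lean libraries and from 23435 to 29969 CPM over the obese ones. That lower sum rests largely on Cfd, whose group mean was 10097 CPM with chow and 3686 CPM with obesity. Of the 10 adipocyte markers Cfd and Slc2a4 passed as lower and Lep as higher. The log2 difference was positive for 3 of them (Lep, Adipoq and Plin4), and the median was -0.28, beside -0.02 over all genes. Mesothelial markers summed to 300 to 751 CPM in the lean group and to 441 to 680 CPM in the obese group. Much of the sum came from Krt19, Krt8 and Krt18, each highest within the lean group in replicates 1 and 4, which held the most epididymal transcripts. Msln, 1 of the 10 mesothelial markers, passed as higher with obesity (log2 1.08 ± 0.29, adjusted p = 0.0314), and none passed as lower. The log2 difference was positive for 8 of the 10, with a median of 0.33. The part of these cells in the FGF values was not tested, and in RNA of whole tissue a smaller number of cells of a type cannot be told apart from less RNA per cell.

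Fgf1, the factor tied to remodelling of visceral fat, was the most abundant secreted factor per length in obese fat. Its gene (Entrez ID 14164) is on the minus strand of chromosome 18, 38838672 to 38929470 on GRCm38. The lean libraries held 124, 83.2, 138, 50.4 and 47.6 CPM, the obese libraries 140, 147, 149, 120 and 118 CPM and the weight loss libraries 140, 117, 135 and 119 CPM. Lean replicates 1 and 3 lay within the range of the other groups, while lean replicates 2, 4 and 5 lay below it. The spread within the lean group, a coefficient of variation of 46.8%, was thus wide beside 11% in obese and 9.01% in weight loss fat. The difference between obese and lean fat, log2 0.60 ± 0.25, did not pass (adjusted p = 0.147), nor did weight loss against lean (0.53 ± 0.26, adjusted p = 0.466) or against obese (-0.07 ± 0.26, adjusted p = 0.943). Without lean replicate 3 the first of these was 0.82 and passed (adjusted p = 0.0407).

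Fgf9, a factor of the mesothelium and of male gonads in development, stood at 10.3, 3.97, 13.2, 13.3 and 11.7 CPM in lean, 11.6, 10, 10.8, 11.7 and 6.53 CPM in obese and 14.0, 12.6, 19.5 and 11.7 CPM in weight loss libraries. The lowest weight loss library lay just above the highest obese library, at the same rounded value, while both groups overlapped with lean. No comparison passed, with a log2 difference of -0.05 ± 0.28 in obese against lean fat (adjusted p = 0.938) and 0.51 ± 0.29 in weight loss against obese fat (adjusted p = 0.472). Fgf9 (Entrez ID 14180) lies on chromosome 14, 58070671 to 58112854, plus strand.

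Fgf7, the keratinocyte growth factor and a near relative of Fgf10, was low throughout. It stood at 1.38, 1.63, 1.58, 0.871 and 0.922 CPM in lean fat, 0.735, 1.45, 0.868, 0.105 and 0.917 CPM in obese fat and 0.565, 2.03, 1.54 and 0.908 CPM after weight loss, and all 3 groups overlapped. The log2 difference was -0.63 ± 0.51 for obese against lean (adjusted p = 0.501). Fgf2, basic FGF, held between 1 and 27 counts in each library, and no comparison passed (obese against lean log2 -0.93 ± 0.80, adjusted p = 0.53). The standard errors of both genes were several times that of Fgf10. Fgf2 (chromosome 3, 37348477 to 37410106, plus strand) shares 640 exon bases with Nudt6 on the opposite strand. Nudt6 reads and Fgf2 reads cannot be told apart there unless the counting used strand, which is not given in the sources used here, and the same holds for the antisense overlaps named for other genes. Fgf7 lies on chromosome 2, 126034658 to 126091185, plus strand.

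Fgf21, the hormone of the family, was near the limit of detection. Its counts were 4, 4, 0, 1 and 2 in lean, 2, 17, 13, 19 and 30 in obese and 2, 8, 2 and 9 in weight loss libraries, or 0.134 ± 0.108 (SD, n = 5), 0.67 ± 0.392 (SD, n = 5) and 0.273 ± 0.2 CPM (SD, n = 4). Obese replicates 2 to 5 were above every lean and weight loss library in CPM, and obese replicate 1 lay within the lean range. The gene (Entrez ID 56636, chromosome 7, 45613890 to 45615490, minus strand) did not pass the filter and was not tested. Obese replicate 1 was also the obese library with the fewest epididymal transcripts, at 10.7 CPM, beside 589 to 8295 CPM in the other 4. Lean replicates 1 and 4 held 3588 and 924 CPM of these transcripts with Fgf21 at 0.178 and 0.067 CPM, from 4 counts and 1 count. Obese replicate 3 held 589 CPM of them with Fgf21 at 0.705 CPM. The part of epididymal transcripts in the Fgf21 counts was not tested.

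Taken as shares of the length-scaled sum of the 6 secreted factors, Fgf10 had the larger mean in lean fat and Fgf1 in obese fat, although in lean replicates 1 and 3 Fgf1 was already the larger. Fgf10 made up 54.5 ± 11.4% of the sum in lean, 29.7 ± 3.35% in obese and 40.7 ± 2.93% in weight loss fat. Fgf1 made up 38.2 ± 12.4%, 62 ± 2.6% and 50.9 ± 3.29% in the same order, and Fgf9 between 5.63% and 6.83%. Fgf2, Fgf7 and Fgf21 each held under 2%, with Fgf21 at 1.85% in obese fat as the highest group mean. The ratio of Fgf10 to Fgf1 was 0.772, 1.59, 0.905, 2.42 and 2.51 in lean, 0.504, 0.408, 0.535, 0.403 and 0.560 in obese and 0.680, 0.753, 0.914 and 0.871 in weight loss libraries. All obese libraries were below all others, and 3 of 5 lean libraries, replicates 2, 4 and 5, were above all weight loss libraries. These ratios were formed after the levels were known and are given with no test.

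Fgf13, the intracellular factor that binds sodium channels, had the largest change of the 9 tested genes in obesity. Its gene (Entrez ID 14168) spans 59062139 to 59585572 on the minus strand of chromosome X on GRCm38. Lean libraries held 2.72, 1.99, 3.57, 2.28 and 2.48 CPM, obese libraries 28.4, 37.2, 29.9, 28.7 and 31.9 CPM and weight loss libraries 15.1, 13.7, 20.6 and 2.46 CPM. The obese libraries lay far above the lean ones, and 3 weight loss libraries lay between both groups, while weight loss replicate 4 was within the lean range. Fgf13 rose by log2 3.57 ± 0.40 in obese against lean fat (adjusted p = 0.000124), and the call held under all 26 alternatives run, with values of 3.48 to 3.71.

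With weight loss the Fgf13 level was 2.41-fold lower than in obese fat and 4.94-fold higher than in lean fat, and neither difference passed with all libraries. The log2 values were -1.27 ± 0.39 (adjusted p = 0.134) and 2.30 ± 0.40 (adjusted p = 0.0557). Without weight loss replicate 4 both passed, at -0.93 (adjusted p = 0.0303) and 2.61 (adjusted p = 2.68e-05). That library was singled out by values such as these, so its omission gives no independent support. The same omission took the calls over all genes from 246 to 179 against obese fat and from 5 to 130 against lean fat. Within the weight loss group Fgf13 had a coefficient of variation of 58.7%, beside 11.5% in obese and 23.1% in lean fat. Weight loss replicate 4 held 132 CPM of epididymal markers, the most in its group, and 19339518 counts, which is within the range of the others.

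**Figure D2:**
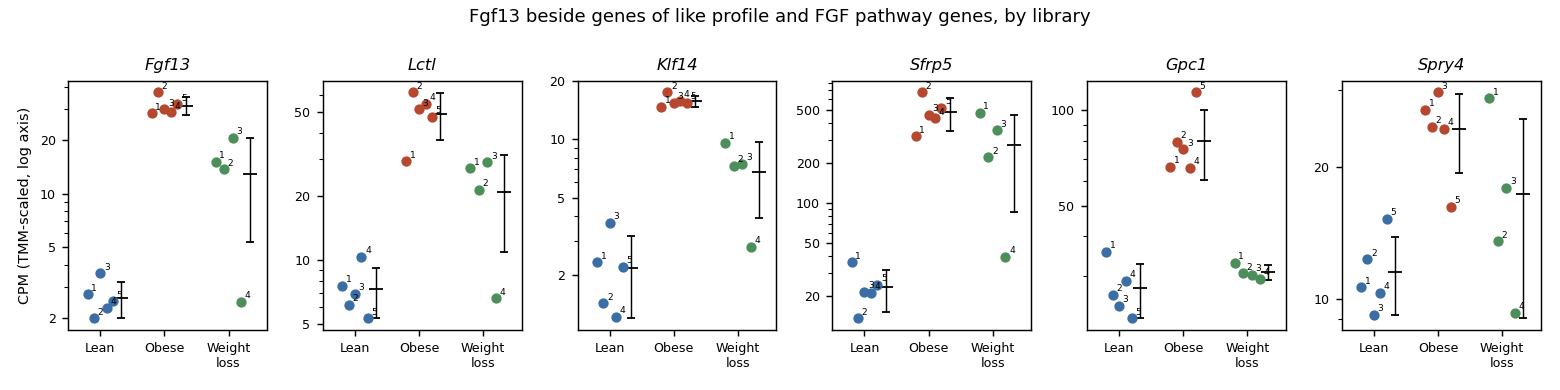
Level by library of Fgf13, of the klotho gene Lctl, of Klf14 and Sfrp5, whose profiles over the libraries were closest to that of Fgf13, and of the pathway genes Gpc1 and Spry4, in CPM on a log axis, with replicate numbers and bars for mean ± SD. Weight loss replicate 4 lies at 2.46 CPM for Fgf13, 6.62 CPM for Lctl and 2.78 CPM for Klf14, within the lean ranges, while all 4 weight loss libraries lie within the lean range for Gpc1.

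The genes with the profile closest to Fgf13 over the 14 libraries, by the mean absolute difference of standardized log2 CPM, were Klf14 (0.153 SD), a transcription factor gene, Sfrp5 (0.172 SD), which encodes a secreted Wnt inhibitor, and Srpx2 (0.176 SD), a secreted sushi-repeat protein gene. Klf14 stood at 1.21 to 3.71 CPM in lean and 14.7 to 17.5 CPM in obese fat, and at 9.6, 7.32, 7.46 and 2.78 CPM after weight loss. Sfrp5 in the 4 weight loss libraries was at 475, 221, 351 and 39.7 CPM and Srpx2 at 52.8, 44.3, 49.1 and 27.2 CPM. Weight loss replicate 4 was the lowest of its group for all 3 genes, as for Fgf13. The closest genes to Fgf10 were the amino acid transporter gene Slc43a1 (0.317 SD), the lipid kinase gene Pi4kb (0.32 SD) and Gpat3 (0.326 SD), an acyltransferase of triglyceride synthesis. Those closest to Fgfr2 were Gfra4 (0.313 SD), a receptor gene of the GDNF family, the fatty acid desaturase gene Fads1 (0.329 SD) and the deiodinase gene Dio3 (0.357 SD). Since the profiles include the difference between groups, any gene with a like difference scores well on this measure.

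Of the sodium channel subunits and other partners of the FGF13 subfamily, 10 of 16 genes passed the filter. None of the 10 passed the test in any of the 3 comparisons. Of all genes 9.71% passed in obese against lean, 1.62% in weight loss against obese and 0.0329% in weight loss against lean fat. In a list this short, none passing is not far from those shares. The median log2 difference of the 10 genes between obese and lean fat was -0.19, beside -0.02 over all genes.

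**Figure D3:**
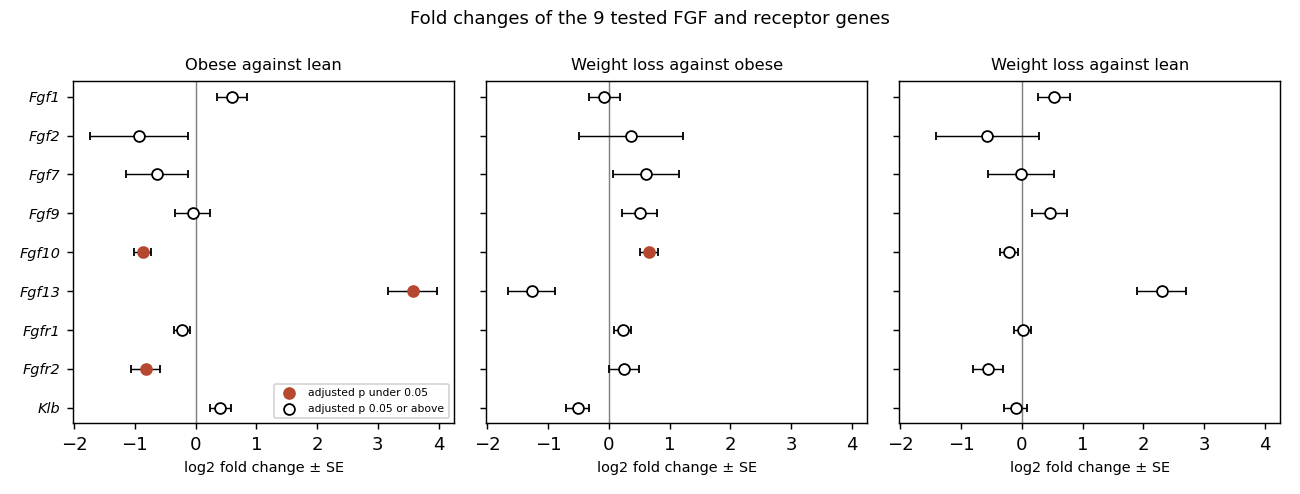
Log2 fold change ± SE of each of the 9 tested genes in the 3 comparisons, from edgeR's quasi-likelihood fit, with filled points for an adjusted p under 0.05. Fgf13 lies at 3.57 in obese against lean fat, and Fgf10 changes sides, from -0.87 to 0.66, between the first and the middle panel, which share the obese libraries.

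Fgfr1, the main FGF receptor of fat cells and the partner of beta-klotho, stood above Fgfr2 per length in all 3 groups. It was at 214, 296, 258, 198 and 266 CPM in lean, 242, 227, 213, 200 and 173 CPM in obese and 284, 254, 249 and 207 CPM in weight loss libraries, with all groups overlapping. The log2 difference was -0.22 ± 0.13 in obese against lean fat (adjusted p = 0.327), 0.23 ± 0.14 in weight loss against obese fat (adjusted p = 0.491) and 0.01 ± 0.14 in weight loss against lean fat (adjusted p = 0.982). Fgfr1 (Entrez ID 14182) lies on chromosome 8, 25518759 to 25575718, plus strand, and shares 164 exon bases with the antisense gene Gm16159.

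Fgfr2, the receptor of FGF7 and FGF10 in its epithelial splice form, fell in obese fat. The lean libraries held 52.1, 31.9, 36.8, 60.3 and 32.8 CPM, the obese libraries 25.8, 20.3, 26.8, 26.1 and 22.5 CPM and the weight loss libraries 17.7, 39.2, 21.0 and 38.0 CPM. All obese libraries were below all lean ones, lean replicates 1 and 4 stood highest, and the weight loss group split into replicates 2 and 4 within the lean range, replicate 3 within the obese range and replicate 1 below it. Lean replicates 1 and 4 also led their group in Myh11, a smooth muscle gene, at 772 and 1728 CPM beside 63.4 to 176 CPM. Tagln, Cnn1 and Des were highest there too, while Rgs5 and Notch3 were not. Their epididymal markers, at 3588 and 924 CPM, were the highest of the lean group. Obese replicate 3 held Myh11 at 462 CPM and Fgfr2 at 26.8 CPM. The part of smooth muscle or epididymis in the Fgfr2 values was not tested. Obese against lean gave log2 -0.82 ± 0.24 (adjusted p = 0.0422), weight loss against obese 0.25 ± 0.25 (adjusted p = 0.724) and weight loss against lean -0.56 ± 0.25 (adjusted p = 0.419). The fall lay close to the threshold. It missed it without lean replicate 1 (adjusted p = 0.0804), without lean replicate 4 (0.0918), without any 1 obese library (0.0653 to 0.102), with the epididymal covariate (log2 -0.89, adjusted p = 0.0742) and without the 4 libraries rich in epididymal markers (log2 -0.62, adjusted p = 0.523). Counts are per gene, so the splice forms were not measured. Fgfr2 (Entrez ID 14183) lies on the minus strand of chromosome 7, 130162451 to 130266808.

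Klb, the co-receptor gene that gives FGF21 access to FGFR1, was at 20.2, 22.4, 27.3, 20.3 and 20.1 CPM in lean, 38.9, 27.0, 32.9, 25.5 and 22.1 CPM in obese and 23.9, 20.0, 24.0 and 14.2 CPM in weight loss libraries. Obese replicates 1 and 3 stood above all others, and the groups overlapped. No comparison passed, with log2 0.41 ± 0.18 in obese against lean fat (adjusted p = 0.17) and -0.51 ± 0.19 in weight loss against obese fat (adjusted p = 0.224). Klb (Entrez ID 83379) lies on chromosome 5, 65348411 to 65386957, plus strand.

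Per unit of length, the ratio of Klb to Fgfr1 was 0.204, 0.165, 0.229, 0.223 and 0.164 in lean, 0.348, 0.258, 0.335, 0.276 and 0.278 in obese and 0.183, 0.171, 0.209 and 0.148 in weight loss libraries. All 5 obese libraries lay above all 9 others, with group means of 0.299 ± 0.04 in obese (SD, n = 5), 0.197 ± 0.0312 in lean (SD, n = 5) and 0.178 ± 0.0254 in weight loss fat (SD, n = 4). Neither gene alone had separate groups. The ratio of Fgfr2 to Fgfr1 was 0.178 ± 0.0827 in lean (SD, n = 5), 0.112 ± 0.0174 in obese (SD, n = 5) and 0.117 ± 0.0551 in weight loss fat (SD, n = 4), and its groups overlapped. The ratios were chosen with the levels known, so no test is given.

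**Figure D4:**
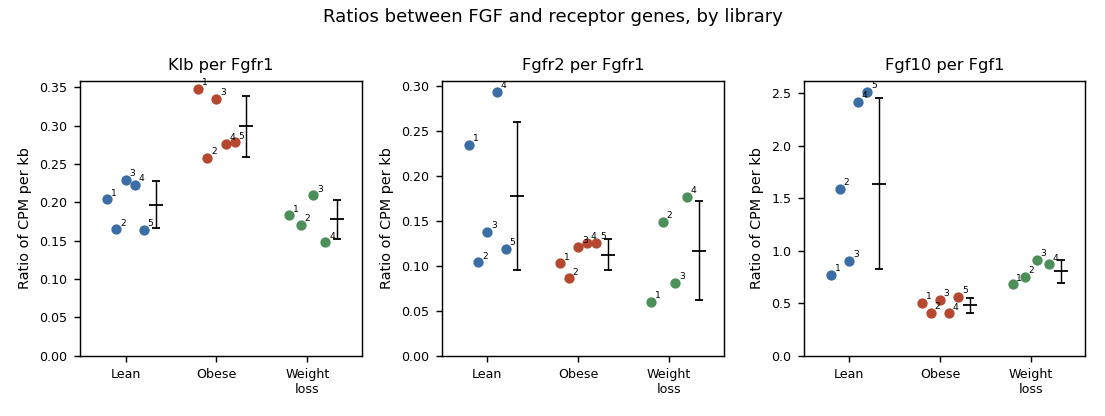
Ratios of length-scaled levels (CPM per kilobase) by library, from 0 on a linear axis, with replicate numbers and bars for mean ± SD. The 5 obese libraries lie at 0.258 or more for Klb per Fgfr1, above the highest other library at 0.229, and at 0.56 or less for Fgf10 per Fgf1, below the lowest other library at 0.68.

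Of the other 5 receptor and klotho genes, Lctl, which encodes the klotho-like protein lactase-like, rose in obese fat and the remaining 4 did not pass. Over all genes 9.71% passed in obese against lean fat, 5.86% of them as higher counted over all genes. Lctl stood at 7.58, 6.17, 6.96, 10.4 and 5.32 CPM in lean, 29.3, 61.9, 51.4, 54.7 and 47.4 CPM in obese and 27.2, 21.5, 29.0 and 6.62 CPM in weight loss libraries. The lean and obese libraries were far apart, and weight loss replicate 4 again lay in the lean range with the other 3 between both groups. Lctl rose by log2 2.75 ± 0.34, or 6.71-fold (adjusted p = 0.000236), in obese against lean fat, and the call held under all 26 alternatives. With weight loss the log2 value was -1.22 ± 0.34 against obese (adjusted p = 0.0981) and 1.53 ± 0.34 against lean fat (adjusted p = 0.124). Without weight loss replicate 4 the latter was 1.79 and passed (adjusted p = 0.0037). That library was singled out by values such as these, so its omission gives no independent support. DESeq2's Wald test called Lctl in both comparisons with weight loss fat, at -1.23 (adjusted p = 0.00936) and 1.51 (adjusted p = 0.00222). Over all genes that test called 691 against obese and 243 against lean fat, where edgeR called 246 and 5.

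Fgfrl1, a receptor that lacks the kinase domain, was at 168 CPM in lean, 174 CPM in obese and 173 CPM in weight loss fat (obese against lean log2 0.05 ± 0.13, adjusted p = 0.858). Per length it stood at 62 CPM per kilobase in lean fat, above each of the 10 genes. Fgfr3 had a log2 difference of -0.36 ± 0.20 (adjusted p = 0.31) between obese and lean fat, Fgfr4 of -0.45 ± 0.75 (adjusted p = 0.769) and Kl, the co-receptor gene of FGF23, of -0.08 ± 0.58 (adjusted p = 0.955). Of 15 other FGF genes 4 passed the filter, and none of the 4 passed the test in obese against lean fat, where 9.71% of all genes did. The 4 genes were Fgf11 (log2 -1.17 ± 0.55, adjusted p = 0.204) and Fgf12 (1.62 ± 0.87, adjusted p = 0.274), both of the intracellular subfamily of Fgf13, and the secreted Fgf16 (1.49 ± 0.76, adjusted p = 0.245) and Fgf18 (1.44 ± 0.53, adjusted p = 0.104). None passed in the other comparisons either, where 1.62% (weight loss against obese fat) and 0.0329% (weight loss against lean fat) of all genes did. Fgf12 reached 5.29 CPM in obese replicate 4 and 1.69 CPM or less in every other library. Fgf5, Fgf6, Fgf15 and Fgf23 had 0 counts in all 14 libraries, which allows up to 0.0105 CPM over their 286094005 counts, counting error only.

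Genes downstream of the receptors were also compared. All 21 genes of the relay from receptor to ERK, such as the adaptor genes Frs2 and Grb2, were tested and none passed in any comparison. Of all genes 9.71% passed in obese against lean, 1.62% in weight loss against obese and 0.0329% in weight loss against lean fat. In a list this short, none passing is not far from those shares. The summed level of the 21 genes was 1372 to 1582 CPM in lean, 1449 to 1554 CPM in obese and 1446 to 1514 CPM in weight loss fat. Of 20 feedback and target genes of ERK 17 were tested, and 2 rose in obese against lean fat: Spry4, a feedback inhibitor of receptor signalling (log2 1.08 ± 0.26, adjusted p = 0.0182), and the early response gene Fos (log2 1.54 ± 0.42, adjusted p = 0.032). The median of these 17 genes was 0.06, beside -0.02 over all genes, of which 5.86% rose. None passed in either comparison with weight loss fat, where 1.62% (against obese fat) and 0.0329% (against lean fat) of all genes did. Spry4 was at 9.17 to 15.2 CPM in lean and 16.2 to 29.6 CPM in obese fat, and at 28.7, 13.5, 17.9 and 9.29 CPM in the weight loss libraries, so the last group spanned both others. Without the 4 libraries rich in epididymal markers the Spry4 difference was as large, at log2 1.27, but with fewer libraries did not pass (adjusted p = 0.145), and with the epididymal covariate it was 1.25 and passed. Spry4 did not pass without obese replicate 3 (log2 0.98, adjusted p = 0.0539). Fos no longer passed in 9 of 26 alternatives. Among them were the epididymal covariate (log2 1.36, adjusted p = 0.126) and the fit without the 4 libraries rich in epididymal markers (log2 1.28, adjusted p = 0.35). Others were the omission of lean replicates 3, 4 or 5 or obese replicates 2 or 4, 1 at a time (adjusted p of 0.0581 to 0.0789).

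Other known readouts of FGF signalling did not pass. Dusp6, the ERK phosphatase gene, had a log2 difference of 0.49 ± 0.20 between obese and lean fat (adjusted p = 0.152) and Spry1 of 0.06 ± 0.23 (adjusted p = 0.917). Etv5, a transcription factor gene induced by ERK, was at 126 and 75.2 CPM in obese replicates 2 and 5 and at 53.8 CPM in lean replicate 1. The other 11 libraries held 22.5 CPM at most, and the log2 difference between obese and lean fat was 1.20 ± 0.58 (adjusted p = 0.216). These 3 libraries were among the 4 with the most epididymal transcripts, and the part of those in the Etv5 values was not tested.

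Among heparan sulfate proteoglycans and the enzymes that build and trim their chains, 25 of 30 genes were tested, and Gpc1 and Hspg2 rose in obese fat. These are 2 of 25, where 5.86% of all genes rose, a share near that background. Gpc1, glypican 1, a membrane-anchored carrier of heparan sulfate, was at 35.7, 26.1, 24.1, 29.0 and 22.0 CPM in lean, 66.2, 79.7, 75.3, 65.7 and 114 CPM in obese and 33.0, 30.6, 30.2 and 29.3 CPM in weight loss libraries. The obese libraries stood apart from both other groups, and the weight loss libraries lay within the lean range, replicate 4 included. Gpc1 rose by log2 1.55 ± 0.16 in obese against lean (adjusted p = 7.9e-05) and fell by 1.38 with weight loss (SE 0.18, adjusted p = 0.00116), both under all 26 alternatives. It differed from lean after weight loss by 0.17 ± 0.17 (adjusted p = 0.736). Hspg2, perlecan of the basement membrane, rose by log2 0.82 ± 0.20 in obese against lean fat (adjusted p = 0.0189), and in weight loss fat was at 1321 CPM in replicate 1 and 599 to 684 CPM in the other 3. Without the 4 libraries rich in epididymal markers the Hspg2 difference was as large, at log2 0.96, and did not pass (adjusted p = 0.166), and with the epididymal covariate it was 0.87 and passed (adjusted p = 0.0482). It did not pass without obese replicate 3 (log2 0.76, adjusted p = 0.0555), and without weight loss replicate 1 Hspg2 was lower in weight loss than in obese fat (log2 -0.86, adjusted p = 0.0136). The median over the 25 genes was 0.08 for obese against lean fat, beside -0.02 over all genes. Of 8 FGF binding and export proteins 7 were tested and none passed in any comparison. Of all genes 9.71% passed in obese against lean, 1.62% in weight loss against obese and 0.0329% in weight loss against lean fat.

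Genes known as regulators of Fgf21 or Fgf1, or as responding to FGF21 in fat, made up a list of 13, of which 12 were tested. The list holds the repressor gene Nr1d1, so a fall need not mean the same for each gene. In obese against lean fat 3 of the 12 fell and none rose, where 3.85% of all genes fell, and the median log2 was -0.58 beside -0.02 over all genes. Pparg, the regulator of fat cell identity (log2 -0.66 ± 0.14, adjusted p = 0.00915), Mlxipl, the carbohydrate response factor ChREBP (log2 -1.14 ± 0.19, adjusted p = 0.00187), and Nr1d1, the clock repressor REV-ERB alpha (log2 -0.72 ± 0.16, adjusted p = 0.0117), were the 3. Without the 4 libraries rich in epididymal markers their log2 values were -0.75, -1.16 and -0.65, of like size, and none passed (adjusted p of 0.101 to 0.235). With the epididymal covariate Pparg and Mlxipl passed (adjusted p = 0.0429 and 0.0162) and Nr1d1 did not (log2 -0.59, adjusted p = 0.0793). None of the 12 passed with weight loss against obese fat, where 1.62% of all genes did, or against lean fat, where 0.0329% did. The median of the 12 was 0.48 against obese fat (0.02 over all genes) and -0.08 against lean fat (0.00 over all genes). Slc2a1, the glucose transporter gene raised by FGF21 in fat cells, did not pass (log2 -0.15 ± 0.11 for obese against lean, adjusted p = 0.43).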

How the data were processed

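The authors deposited expected counts without normalization, in rows labelled by Entrez ID, and 34.8% of the values are not whole. The build was mm10 per the submitters' processing notes. The aligner, the counting tool, the annotation and the use of strand were not given in the sources used here. Per the labels' protocols, poly(A) RNA came from a cesium chloride gradient. Of 35794 IDs, 74 stood on more than 1 line and were summed, and 32919 had a RefSeq symbol. Counts were rounded. Weight loss replicate 5 held 230 counts and was left out by a minimum of 1000000.

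One model with a coefficient per group was fitted with edgeR 4.0.16 in R 4.3.3 (filterByExpr, TMM, quasi-likelihood test). P-values are two-sided and were adjusted by Benjamini-Hochberg over the 15208 genes tested, with calls at 0.05. The SE was derived by dividing the size of the log2 value by the root of F. The fit was checked on simulated counts. Lengths are merged GENCODE exons. Besides the 10 genes, the text names family genes past the filter, up to 4 called genes of each list, 7 pathway genes taken in every case, and the 3 genes of closest profile. The genes and lists were chosen with earlier results of these data known. Alternatives used DESeq2 1.42.0 and limma 3.58.1, other scalings and filters, the replicate block, an epididymal covariate and omitted libraries. edgeR's legacy=FALSE setting was added after seeing the data. Depth limits precision, and floors cover counting error only. Within groups no libraries were near-identical (lowest chi-square per degree of freedom 40.9). Tables and plots used Python 3.11.15, pandas 2.3.3 and matplotlib 3.10.9.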

Additional observations from a re-analysis of the deposited data

Results flagged for a closer look

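Of 27 groups of 4 or 5 libraries examined, 3 for each of the 9 tested genes, 1 held a library far from the rest: Fgf2 was at 0.814 CPM in obese replicate 3, beside 0.196 to 0.247 CPM in the other 4 obese libraries. These are 15 counts against 4 to 7. Chance flags about 1 in 20 such groups.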

How the results depend on the processing

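The 3 genes called in obese against lean fat became 1, Fgf13, without the 4 libraries rich in epididymal markers, and leaving out 1 library gave 2 to 4. The 1 gene called in weight loss against obese fat became 2 with DESeq2's Wald test and with limma-voom, and 0 with only both groups compared, with the replicate block, with the epididymal covariate, without the 4 rich libraries and with the library of 230 counts, while leaving out 1 library gave 0 to 1. The 0 genes in weight loss against lean fat became 1 with DESeq2 and with the small library, and leaving out 1 library gave 0 to 1. Replicate numbers did not pair the libraries (13 pairs of the same number, mean correlation of deviations -0.01, range -0.54 to 0.49), and 3 of 14 libraries were closest to their own number. With the block Fgfr2 lost its call in obese against lean fat (adjusted p = 0.0582) and Fgf1 gained one (adjusted p = 0.0432). With library size alone as the scale Fgfr2 also lost it (adjusted p = 0.0509). Fgf13 was called in weight loss against obese fat with DESeq2 (adjusted p = 0.0225) and limma-voom (adjusted p = 0.0463), and against lean fat with DESeq2 (adjusted p = 5.49e-06) and the small library (adjusted p = 0.031). The causes were not tested.

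Directions that turned were all of values that passed in neither fit. For Fgf9 in obese against lean fat the value was 0.00 with the block, 0.06 with the covariate, 0.09 without the rich libraries and -0.27 to 0.05 without 1 library. In weight loss against obese fat Fgf1 was 0.03 with the covariate, Fgf2 was -0.61 with the covariate, -0.24 without the rich libraries and -0.49 to 0.63 without 1 library, and Fos was 0.03 without the rich libraries. In weight loss against lean fat Fgf7 was 0.02 with library size alone, 0.05 with the covariate, 0.01 without the rich libraries and -0.34 to 0.22 without 1 library. Fgfr1 was -0.01 with DESeq2 size factors, DESeq2's test and the block, -0.02 with no filter, -0.03 with the CPM filter and without the rich libraries, -0.04 with the small library, -0.07 with the covariate and -0.10 to 0.06 without 1 library. Without 1 library Klb ran from -0.19 to 0.00 and Hspg2 from -0.04 to 0.38.

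Over all genes, 1477 calls in obese against lean fat became 2260 with DESeq2, 655 with the covariate, 125 without the rich libraries and 849 to 1673 without 1 library. The 246 in weight loss against obese fat became 691, 26, 20 and 141 to 265, and the 5 in weight loss against lean fat became 243, 2, 0 and 0 to 130, with 1 under limma-voom, 0 with only both groups, 2 with the block and 10 with the small library.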
